A study of Homo sapiens with 4 samples.

Results

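Lysosomal hydrolases and the proton pump that acidifies the lysosome were followed in Panc1 cells, an established human pancreatic carcinoma line, after romidepsin, tamoxifen or both. The 55 genes were chosen by name: 14 glycosidases and sulfatases, 11 cathepsins and other peptidases, 7 genes of lipid and sterol handling, 7 membrane proteins and 16 subunits or accessory proteins of the pump. A gene entered if a probe set was annotated to it alone, which held for 53 of the 55 members among 19775 genes in all. GLB1 shares its probe set with TMPPE and ATP6V1F shares its own with LOC101927180, so these 2 members were not analysed. The 53 genes carried 131 probe sets, and each gene was read from its brightest one.

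Untreated cells were compared with cells given romidepsin, tamoxifen or romidepsin plus tamoxifen for 24 hours. The labels give no doses and do not name the vehicle. Each condition has 1 array, so no value has a replicate error, no test between conditions was made, and each fold describes these 4 arrays only. All 4 arrays come from 1 cell line grown in the same medium with fetal bovine serum.

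The lysosome breaks down proteins, glycans and lipids with acid hydrolases. The V-ATPase keeps its lumen acid: a soluble V1 sector hydrolyses ATP and drives a membrane-bound V0 sector that moves protons. Many genes of the organelle are known targets of TFEB, TFE3 and MITF, which bind an E-box-like element (the CLEAR element) near their start sites. Romidepsin inhibits class I histone deacetylases. Tamoxifen is an estrogen receptor ligand and also a cationic amphiphilic amine, a type of compound that is known to gather in acidic organelles.

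The element as searched here, TCACGTG on either strand, lay in the promoter windows of some of the members that stand out below and of others that do not. Both sorts are shown, from the RefSeq promoter sequences of GRCh38.p14, 5′ to 3′ on the strand of the gene, with each match in capitals. NEU1 lies at chr6:31862925-31862965 (minus strand), MCOLN1 at chr19:7522565-7522606 (plus), ATP6V0D1 at chr16:67481193-67481234 (minus), CTSF at chr11:66568706-66568746 (minus), ARSB at chr5:78986095-78986135 (minus) and LAMP1 at chr13:113297029-113297119 (plus). The first 4 are of genes at least 2-fold higher with the combination than in untreated cells, ARSB was lower, and LAMP1 differed little. The CTSF call was lost when the arrays were centred on their medians, as given below.
NEU1: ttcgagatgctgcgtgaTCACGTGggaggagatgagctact
MCOLN1: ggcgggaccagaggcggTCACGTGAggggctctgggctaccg
ATP6V0D1: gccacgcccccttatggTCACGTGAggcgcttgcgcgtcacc
CTSF: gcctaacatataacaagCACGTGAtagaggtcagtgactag
ARSB: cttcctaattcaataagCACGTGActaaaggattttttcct
LAMP1: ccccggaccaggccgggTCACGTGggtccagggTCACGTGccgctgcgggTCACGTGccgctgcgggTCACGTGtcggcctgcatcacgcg
CACGTGA is the same element read on the other strand, and TCACGTGA holds it on both.

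The deposited values are MAS5 intensities on a linear scale. Signals under 66.4, the median of all signals, were set to that floor, and a comparison took in a gene when 1 or both of its arrays exceeded the floor. Members lay well inside the measured range: 51, 52, 52 and 53 of the 53 were above the floor on the untreated, romidepsin, tamoxifen and combination arrays. The exceptions were NEU1, below the floor in untreated cells, and CTSS, below it on every array but the combination. The arrays differed as wholes in 2 ways. The 3′/5′ ratio of the actin control probe sets, a sign of RNA or labelling quality, was 1.21 untreated, 1.18 with romidepsin, 1.39 with tamoxifen and 1.73 with the combination, while that of GAPDH was 1.03 to 1.07. Against the untreated array, the median log2 signal was higher by 0.19, 0.15 and 0.30 with romidepsin, tamoxifen and both, and the spike-in controls differed by 0.02, -0.36 and -0.29. The part of these array differences in the results was not tested beyond the rescalings given with them.

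Markers of the cell type were present. Vimentin (VIM) read 38695, 30473, 33023 and 22486 on the untreated, romidepsin, tamoxifen and combination arrays, and KRT18 read 25361, 19644, 16359 and 11344. KRT19 was below the floor on all 4, and EPCAM was below it in untreated cells. Of 7 macrophage markers 6 had a probe set. Of these, 5 (PTPRC, CD14, CD163, AIF1 and LYZ) were below the floor on every array, and CSF1R was above it with romidepsin (314) and the combination (485). The summed signal of the 6 was 101, 452, 236 and 598 in the same order.

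The 3 comparisons with untreated cells share the untreated array, so they are not independent. An error on that array would enter all 3, and agreement between them is not separate support. Romidepsin alone set 15 of 52 measured members at least 2-fold above untreated cells (28.8%) and 0 at least 2-fold below. Over all 13619 measured genes 14.3% were as much higher and 9.27% as much lower. The median log2 difference was 0.47 over the members and 0.06 over all genes, and 41 members were above 0 against 11 below. In bulk RNA, a change in how much RNA each cell holds and a change in which cells are present cannot be told apart.

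Few members differed with tamoxifen alone. It set 3 of 52 at least 2-fold higher (5.77%), GPNMB, ATP6V1C1 and NEU1, and 0 at least 2-fold lower, beside 3.7% and 1.07% of 13051 genes. Their median was 0.21 against 0.01 over all genes, with 36 members above 0 and 16 below. With the arrays scaled to their spike-in controls the median was 0.56 and 9 members passed the 2-fold line, while the median of all genes moved to 0.33 and 1526 of 13257 genes passed it.

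The combination set 22 of 53 members at least 2-fold above untreated cells (41.5%) and 2 at least 2-fold below (3.77%), where all 13802 genes gave 19.8% and 14.4%. The median was 0.58 against 0.09. Of 8 epithelial markers 7 had a probe set, and their summed signal was 42276, 40480, 29203 and 21591 on the untreated, romidepsin, tamoxifen and combination arrays. KRT18, KRT8 and SOX9 carry that sum, and 2 dimmer markers were higher with the combination: CDH1 read 223, 1027, 452 and 874, and EPCAM 64.3 (below the floor), 395, 71.9 and 475. The summed signal of 3 mesenchymal markers was 41005, 32597, 35742 and 24665. The part of these marker levels, and of the actin ratio, in the combination's counts was not tested. Higher calls were 91.7% of all member calls in the deposited scaling and 73.9% (17 higher, 6 lower) after the arrays were centred on their medians. For romidepsin alone that share went from 100% to 85.7% (12 higher, 2 lower). Over all genes the same shares went from 57.9% to 41.2% for the combination and from 60.7% to 47.4% for romidepsin.

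The remaining comparisons describe a drug added to the other. Tamoxifen added to romidepsin set 3 of 53 members at least 2-fold higher (GPNMB, ATP6V1C1 and CTSK) and 1 lower (ARSB), beside 4.07% higher and 2.27% lower of 13726 genes. The ARSB call held under 1 of 5 alternatives (down to -0.04) and that of CTSK under 2 of 4 (0.94 with the arrays centred on their medians, 0.90 with 32 added). The median was 0.10 against -0.03. Romidepsin added to tamoxifen set 16 of 53 higher (30.2%) and 4 lower (7.55%), beside 14.8% and 11.8% of 13893 genes, with a median of 0.53 against 0.05. Each shares an array with comparisons above.

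**Figure D1:**
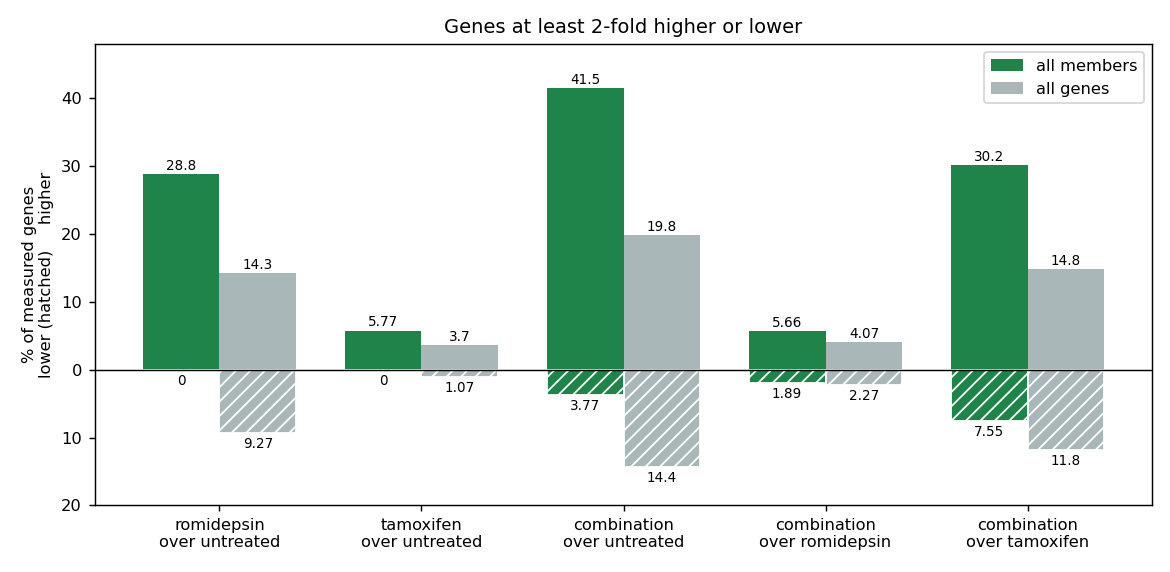
Share of genes at least 2-fold higher (up) or lower (down) in each of the 5 comparisons, in percent of measured genes, for the members (green) and all genes (grey); hatched bars are lower calls. The members' higher share was 28.8% with romidepsin and 41.5% with the combination, against 14.3% and 19.8% of all genes.

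Most members are bright, so they were also set beside genes as bright as they are, a comparison chosen after the data were seen. Among 6439 genes at or above the members' lower quartile of mean signal (686), 9.23% were at least 2-fold higher with romidepsin and 10.2% lower, against 12 of 40 members (30%) and 0. With the combination 16.2% of the bright genes were higher and 18% lower, against 19 of the 40 members (47.5%) and 1 (2.5%).

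Hydrolases and transporters of lipids and sterols gave the highest medians of all roles with romidepsin and with the combination. In this group 4 of 7 were at least 2-fold higher with romidepsin and 5 of 7 with the combination, 0 were lower, and the median log2 differences were 1.21 and 1.43. All genes gave 14.3% and 19.8% higher, and 9.27% and 14.4% lower. ASAH1, the acid ceramidase, read 1273 in untreated cells, 3585 with romidepsin, 2042 with tamoxifen and 6120 with the combination. It was 2.82-fold higher with romidepsin and 4.81-fold with the combination. Its 4 probe sets above the floor gave log2 differences of 1.38 to 2.43 for romidepsin and 2.27 to 3.50 for the combination, so all 4 passed the 2-fold line in both.

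NPC1, the membrane protein that passes cholesterol out of the lysosome, read 1241 untreated, 4008 with romidepsin, 1595 with tamoxifen and 5459 with both. The array with romidepsin alone stood 3.23-fold and the combination 4.4-fold above untreated cells. NPC2, its soluble partner, read 4933, 8070, 9241 and 13312 in the same order. Here tamoxifen alone (1.87-fold) gave a larger difference than romidepsin alone (1.64-fold), neither passed 2-fold, and the combination was 2.70-fold higher. The other probe sets of NPC1 were dim, and the median over its probe sets gave 0.01 for romidepsin.

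SMPD1, the acid sphingomyelinase, was high on both arrays with romidepsin: 568 untreated, 1973 with romidepsin, 664 with tamoxifen and 2080 with both. The log2 difference with romidepsin was 1.80, and a second probe set gave 1.52. With probe sets of 1 transcript group only, which leaves a dim one, it was 0.43. LIPA, the acid lipase that frees cholesterol from its esters, read 4837, 11183, 7671 and 12274, or 2.31-fold higher with romidepsin, 1.59-fold with tamoxifen and 2.54-fold with both. PSAP, the precursor of the saposins that present lipids to hydrolases, differed less, at 18550, 24033, 19850 and 23316. PPT1, which removes palmitate from proteins, read 8582, 7410, 8640 and 7108 and was the 1 gene of the group below untreated cells with romidepsin. This group crosses cholesterol metabolism: of 7 genes of sterol synthesis and its control with a probe set, 5 were at least 2-fold higher with romidepsin, 6 with tamoxifen and 5 with the combination, with medians of 1.74, 1.44 and 2.83. Over all genes the shares were 14.3%, 3.7% and 19.8%.

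On the probe sets used, all 15 measured pump genes were above untreated cells with romidepsin, and all 15 with the combination, with medians of 0.84 and 1.03. At least 2-fold higher were 5 (33.3%) and 9 (60%) of them, beside 14.3% and 19.8% of all genes. As much lower were 0, beside 9.27% and 14.4%. Some dimmer probe sets went the other way with romidepsin: ATP6V0A2 (-0.70), ATP6V1D (-0.28) and ATP6V0E1 (-0.21, and -0.25 with the combination). The members outside the pump had medians of 0.31 and 0.39, with 10 of 37 and 13 of 38 at least 2-fold higher. Centred on the array medians, the combination left V0 with 4 of 6 subunits above 0, and V1 with 7 of 7.

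In the catalytic V1 sector 6 of 7 measured subunits were at least 2-fold above untreated cells with the combination, beside 19.8% of all genes. ATP6V1A, which carries the ATP-hydrolysing sites, read 1886 untreated, 6123 with romidepsin, 2319 with tamoxifen and 8005 with both. ATP6V1D, part of the central rotor, read 2174, 7730, 3947 and 13635. Both were more than 3-fold higher with romidepsin alone, by 3.25-fold and 3.56-fold, and the combination stood 4.24-fold and 6.27-fold above untreated cells.

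ATP6V1C1, a subunit of the stator that joins V1 to V0, was the 1 pump gene among the members that tamoxifen alone set 2-fold higher. It read 1305 untreated, 2528 with romidepsin, 2868 with tamoxifen and 6634 with both. Each drug alone came to about the same level (1.94-fold and 2.20-fold), and the combination was 5.08-fold above untreated cells. The tamoxifen call was lost, at 0.99, when the arrays were centred on their medians, and at 0.85 over the median of its probe sets.

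The remaining V1 subunits differed less. ATP6V1B2, the partner of A in the catalytic ring, read 1941, 3701, 1971 and 3974, and so followed romidepsin. ATP6V1E1 (3024, 4233, 4408 and 6141) and ATP6V1G1 (4192, 5486, 5692 and 8536), which form the peripheral stalks, stood near the same level with either drug. Only the combination brought these 3 past 2-fold, at 2.05-fold, 2.03-fold and 2.04-fold, and all 3 calls were lost when the arrays were centred on their medians, at 0.74, 0.73 and 0.73. ATP6V1H, a regulatory subunit, read 1741, 3118, 2012 and 3103.

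In the membrane sector V0, 2 of 6 subunits were at least 2-fold higher with romidepsin and 2 of 6 with the combination, with medians of 0.52 and 0.41. That is 33.3% each, beside 14.3% and 19.8% of all genes. ATP6V0A1, an isoform of the large subunit that lines the proton path, read 723 untreated, 1977 with romidepsin, 738 with tamoxifen and 2201 with both. ATP6V0D1, which couples the rotor to V0, read 4088, 8343, 3000 and 10606. Its 2.04-fold call with romidepsin was lost, at 0.84, when the arrays were centred on their medians. The level of ATP6V0A1 with tamoxifen was that of untreated cells (1.02-fold), whereas ATP6V0D1 was 1.36-fold lower with tamoxifen alone and 1.27-fold higher when tamoxifen was added to romidepsin.

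The proton-binding ring subunits ATP6V0B (8281, 11794, 5992 and 9586) and ATP6V0C (9840, 13546, 7652 and 12098) had 1 pattern. Both were highest with romidepsin and lowest with tamoxifen. ATP6V0E1, a small subunit, read 12971, 17919, 11842 and 18620, and ATP6V0A2, a second isoform of the large subunit, read 579, 830, 667 and 692. With tamoxifen alone the V0 median was -0.25, with 2 of 6 subunits above 0, and the V1 median was 0.44, with 7 of 7 above 0. The sign for V0 depended on the scaling: the median was -0.40 after centring on array medians and 0.11 after scaling to spike-in controls, while that of V1 was 0.29 and 0.80. Rescaling shifts both sectors by the same amount, and the difference between them was not tested.

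The accessory protein ATP6AP2, also known as the prorenin receptor, read 4752 untreated, 11176 with romidepsin, 6664 with tamoxifen and 15086 with both, 2.35-fold and 3.17-fold higher on the arrays with romidepsin. ATP6AP1, which helps assemble the pump, read 6417, 7881, 6705 and 9593 and passed 2-fold in no comparison.

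**Figure D2:**
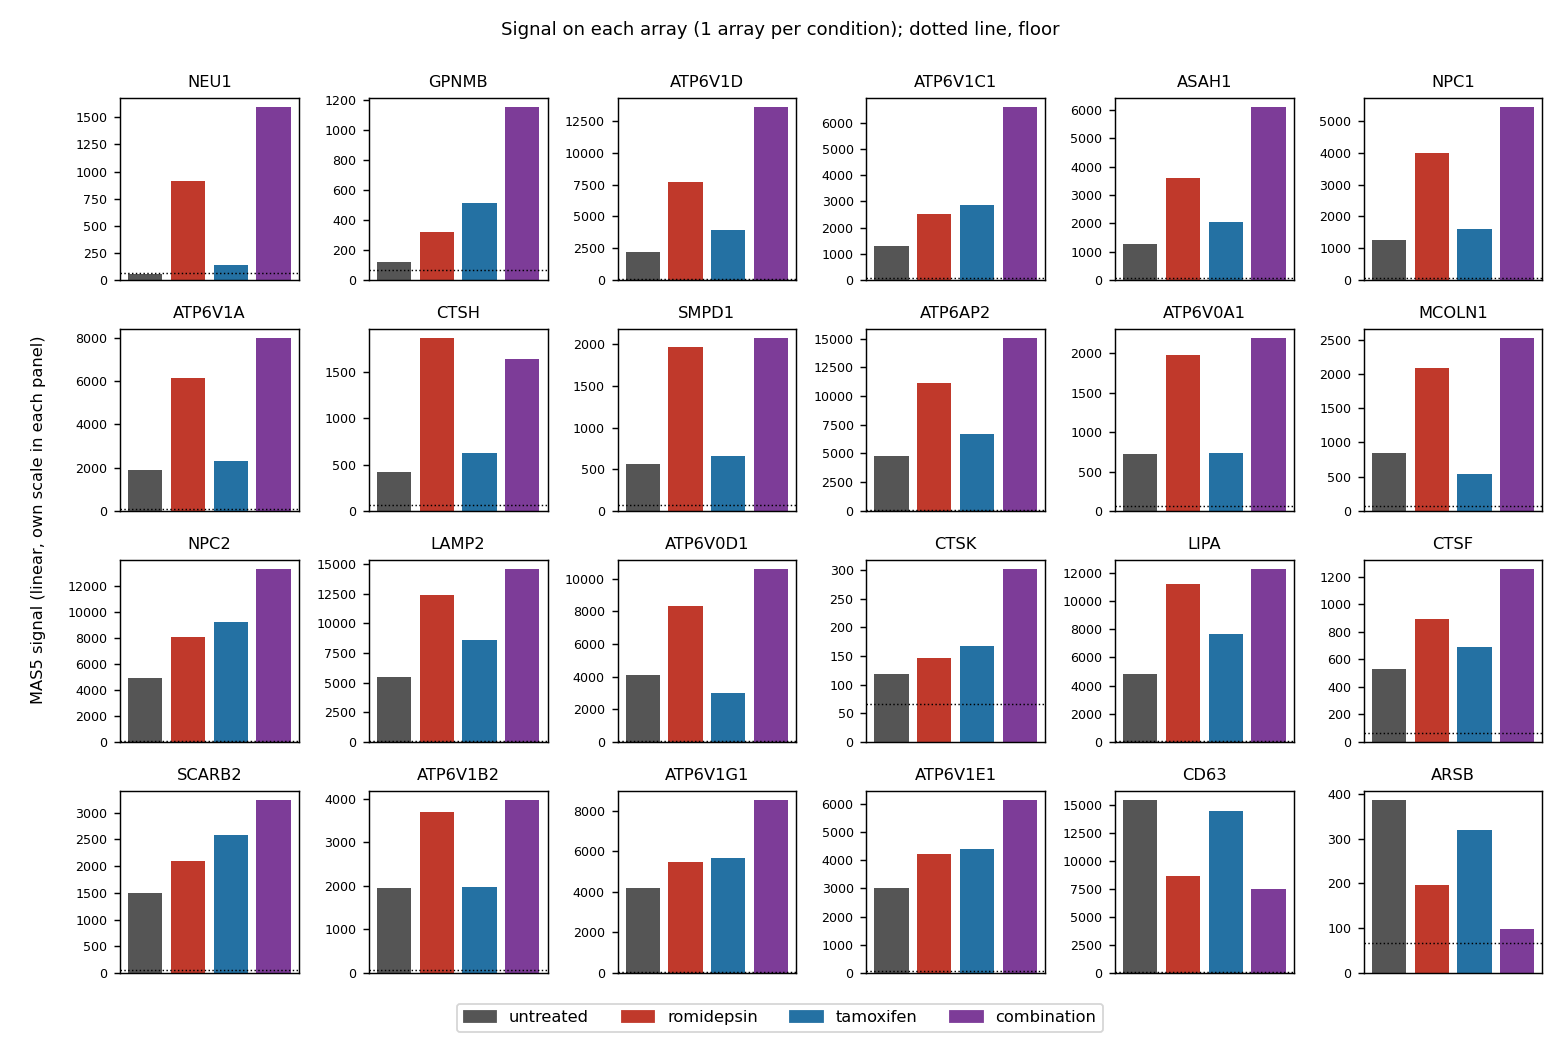
MAS5 signal (linear, own scale in each panel) on the untreated, romidepsin, tamoxifen and combination arrays for the 24 members at least 2-fold apart between the combination and untreated cells, ordered by that difference; 1 bar is 1 array and the dotted line is the floor of 66.4. NEU1 goes from below the floor to 1600, and CD63 and ARSB are the 2 members that are lower.

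The glycosidases and sulfatases did not move together. Of 13 measured, 7 were above and 6 below untreated cells with romidepsin, with a median of 0.19. At least 2-fold higher were 2 (15.4%), near the 14.3% of all genes. With the combination 1 was higher and 1 was lower (7.69% each, beside 19.8% and 14.4% of all genes). The median there was 0.28, or -0.02 when the arrays were centred on their medians. NEU1, the sialidase that removes sialic acid from glycans, stood apart: it read 49.5 in untreated cells, which is below the floor, 912 with romidepsin, 133 with tamoxifen and 1600 with both. It was thus at least 13.7-fold higher with romidepsin, at least 2.01-fold with tamoxifen and at least 24.1-fold with both, and 12-fold higher with the combination than with tamoxifen. The bounds depend on the floor. Over the alternatives, the lowest log2 difference was 1.16 with romidepsin. It was 1.97 with the combination, both over untreated cells and over tamoxifen, so these calls were kept. NEU1 has 1 probe set, so no second one can be set beside it.

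ARSA, the sulfatase of sulfatides, read 316, 646, 233 and 504, and its 2.04-fold difference with romidepsin was lost under 3 of 6 alternatives. It was 2.16-fold higher with the combination than with tamoxifen, a call that held under 4 of 6 alternatives (down to 0.30). MAN2B1, an alpha-mannosidase, read 505, 910, 453 and 971, and was 2.14-fold higher with the combination than with tamoxifen. That call was lost, at 0.95, when the arrays were centred on their medians. GLA, the alpha-galactosidase, read 4518, 6370, 4233 and 7758 and passed 2-fold in no comparison. GAA, GUSB and MANBA stayed within 1.37-fold of untreated cells on all 3 treated arrays.

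The 6 members of the group below untreated cells with romidepsin were ARSB, IDS, HEXA, NAGLU, GALC and SGSH. ARSB, a sulfatase of dermatan sulfate, read 386 untreated, 197 with romidepsin, 318 with tamoxifen and 97.8 with both. It was 3.95-fold lower with the combination, and its 3 probe sets above the floor in untreated cells gave -1.28, -1.91 and -1.98 there and -1.24, -1.44 and -0.97 with romidepsin alone. The -1.91 is a bound, as that probe set was below the floor with the combination. IDS, a sulfatase of heparan and dermatan sulfate, read 7728, 4871, 9972 and 4249. All 7 of its probe sets above the floor in untreated cells were lower with the combination and 4 of them at least 2-fold, although the brightest, used here, gave -0.86.

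HEXA, a subunit of beta-hexosaminidase, read 1606, 954, 1776 and 816, and NAGLU, which acts on heparan sulfate, read 298, 204, 433 and 195. GALC, which acts on galactosylceramide, read 436, 384, 723 and 375. For these 3 genes and IDS, on the probe sets used, tamoxifen alone gave the highest of the 4 signals and the combination the lowest. The 7 IDS probe sets above the floor in untreated cells ranged from -0.14 to 0.37 with tamoxifen, so this order did not hold on all of them. A second GALC probe set was lowest with romidepsin (91.9, against 101 with the combination). ARSB, IDS, HEXA and NAGLU were the 4 members at least 2-fold lower when romidepsin was added to tamoxifen, by 3.25-fold, 2.35-fold, 2.18-fold and 2.22-fold. The NAGLU call was lost, at -0.08, with the floor at the 75th percentile. The HEXA value turned to 0.35 when the median over its probe sets was taken, of which all but the one used read at most 121. SGSH, which removes sulfate from heparan sulfate, read 386, 230, 268 and 210, with all 3 treated arrays below the untreated one.

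Among the cathepsins and peptidases 1 of 10 was at least 2-fold higher with romidepsin and 3 of 11 with the combination, beside 14.3% and 19.8% of all genes. CTSH, an aminopeptidase, read 425 untreated, 1871 with romidepsin, 631 with tamoxifen and 1637 with both. Its difference of 4.41-fold with romidepsin and 3.86-fold with the combination was the largest of the group. CTSF, a cysteine protease, read 528, 894, 694 and 1259 and passed 2-fold with the combination only (2.39-fold). This call was lost, at 0.96, when the arrays were centred on their medians. CTSK, the collagen-degrading cathepsin of osteoclasts, was dim, at 119, 147, 168 and 302, and was 2.55-fold higher with the combination than in untreated cells and 2.06-fold higher than with romidepsin.

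The most widely expressed proteases differed little. CTSD, the main aspartic protease, read 1732, 2136, 2134 and 2395. CTSB read 3617, 3935, 3019 and 3158, and its 5 probe sets spread from -0.66 to 0.12 with romidepsin. CTSA, which also protects NEU1 in a complex, read 2453, 2494, 2498 and 2920, so that it stayed within 1.19-fold of untreated cells where NEU1 did not.

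CTSL read 2760, 1907, 3381 and 2136, lower on both arrays with romidepsin, and CTSZ read 577, 429, 519 and 323. TPP1, a tripeptidyl peptidase, read 4577, 5060, 6651 and 6168, and was highest with tamoxifen on the probe set used. Its other probe sets were highest with the combination, the next brightest at 2141, 2529, 3168 and 3472. CTSO stayed near the floor (96.2, 114, 141 and 78.8), and CTSS was above the floor with the combination only, at 69.4.

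Of 7 membrane proteins, 3 were at least 2-fold higher with romidepsin (42.9%), 1 with tamoxifen (14.3%) and 4 with the combination (57.1%). All genes gave 14.3%, 3.7% and 19.8%. With the combination 1 membrane protein was lower (14.3%), beside 14.4% of all genes. The largest tamoxifen difference of all members was here. GPNMB, a glycoprotein of melanosomes and lysosomes, read 116 untreated, 323 with romidepsin, 516 with tamoxifen and 1158 with the combination. It was 2.78-fold, 4.44-fold and 9.95-fold above untreated cells, and on its brightest probe set passed 2-fold in all 5 comparisons. Its second probe set was dim, at 17.9, 20, 92.3 and 94.4, above the floor on both arrays with tamoxifen and below it on the others. With the floor at the 75th percentile, the difference with tamoxifen was bounded at 0.34. The median over both probe sets gave 0.60 for the combination over tamoxifen, under the 2-fold line.

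MCOLN1, the calcium channel TRPML1, read 847 untreated, 2095 with romidepsin, 538 with tamoxifen and 2532 with both. The lowest array was that with tamoxifen alone and the highest that with both drugs, so romidepsin stood 2.47-fold above untreated cells and the combination 4.71-fold above tamoxifen. LAMP2, a main protein of the lysosomal membrane, read 5501, 12388, 8594 and 14596. It was 2.25-fold higher with romidepsin from the brightest probe set, but its 4 probe sets ranged from 0.58 to 1.17, and their median gave 0.92, under the 2-fold line.

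SCARB2, the receptor that carries glucocerebrosidase to the lysosome, read 1498, 2089, 2588 and 3241. CD63, a tetraspanin of late endosomes and exosomes, read 15439, 8614, 14484 and 7449, 1.79-fold lower with romidepsin and 2.07-fold lower with the combination; scaled to the spike-in controls the latter was -0.76, under the 2-fold line. CLN3 (2489, 1661, 2107 and 1534) was also lower with romidepsin. Its second probe set (1875, 1510, 1597 and 901) gave -1.06 with the combination, past the 2-fold line, where the one used gave -0.70. LAMP1 (8599, 9261, 8033 and 9735) stayed within 1.13-fold of untreated cells on its brightest probe set. Its 4 probe sets ranged from -0.27 to 0.58 with romidepsin and from -0.53 to -0.09 with tamoxifen.

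**Figure D3:**
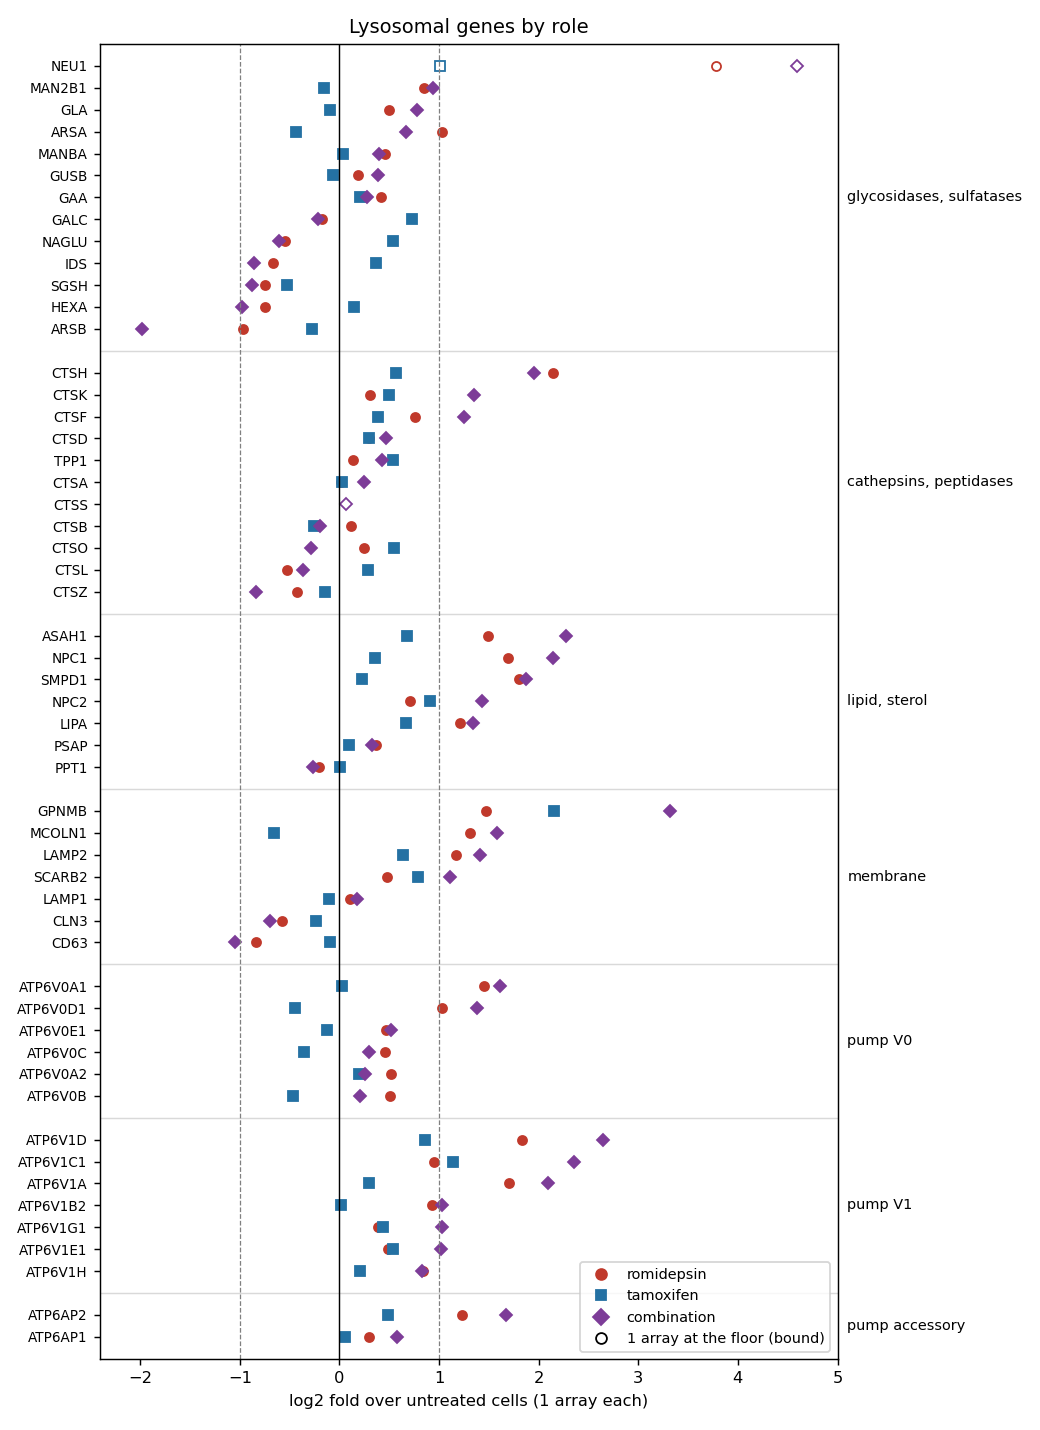
Log2 difference of each measured member over untreated cells for romidepsin, tamoxifen and the combination, grouped by role; dashed lines mark 2-fold, 1 point is 1 gene on 1 pair of arrays, and open points are bounds with an array at the floor. On the probe sets used, all 15 pump genes lie above 0 with romidepsin and with the combination. The glycosidases and sulfatases lie on both sides (7 above and 6 below).

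A drug's difference can be taken on 2 pairs of arrays that share none: romidepsin over untreated cells, and the combination over tamoxifen. Of 52 members measured in both pairs, 39 were higher in both, 11 lower in both and 2 of opposite sign (3.85%, against 15.7% of 13098 genes). At least 2-fold higher were 15 without tamoxifen and 16 with it, and 13 were in both lists, or 86.7% of the first and 81.2% of the second. For all genes the shares were 76.4% and 73.2%. The 13 are a repeat on other arrays of the same cells, not replicates of a condition.

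For tamoxifen the pairs without a shared array are tamoxifen over untreated cells and the combination over romidepsin. Of 52 members 24 were higher in both, 9 lower in both and 19 of opposite sign (36.5%, against 26.8% of 12363 genes). GPNMB and ATP6V1C1 were at least 2-fold higher in both, out of 3 members in each list (66.7% of each), and for all genes the shares in both were 34.4% and 34.3%. NEU1 stood at least 2.01-fold higher with tamoxifen alone and 1.75-fold higher with tamoxifen added to romidepsin, and CTSK 1.42-fold and 2.06-fold.

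For each of 51 members above the floor on all arrays, the tamoxifen difference with romidepsin was set against that without it. The median of the second subtracted from the first was -0.05 log2 units and its median size was 0.20, beside -0.04 and 0.24 over 11058 genes. The members ran from -1.08 (CTSO) to 0.93 (MCOLN1). ATP6V0D1 stood next to MCOLN1 at 0.79, and GALC (-0.77) and CTSH (-0.76) next to CTSO. For scale, 2 probe sets of a member on the same arrays differed by a median of 0.12 for tamoxifen over untreated cells and 0.10 for the combination over romidepsin.

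**Figure D4:**
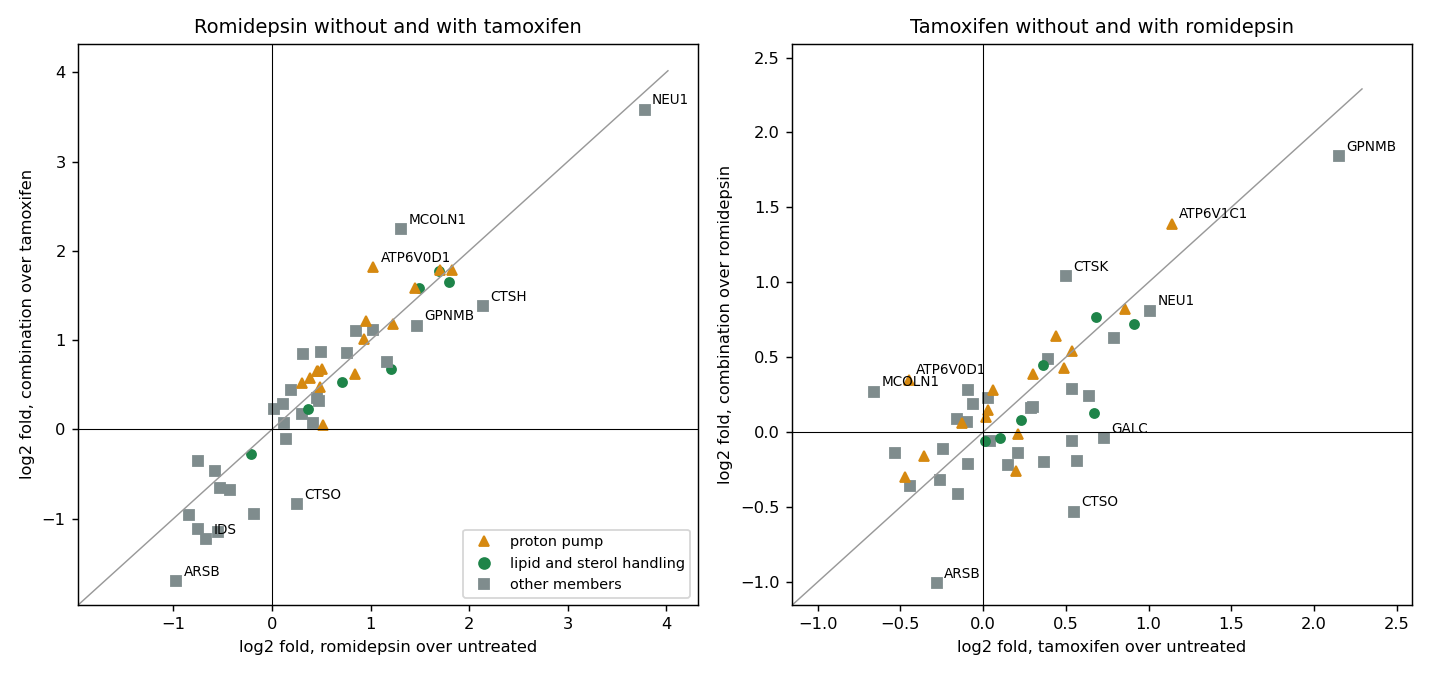
Log2 difference of each member for romidepsin (left) and tamoxifen (right), without the other drug on the x axis and with it on the y axis, on pairs of arrays that share none; the diagonal marks equal differences, and values of NEU1 against untreated cells are lower bounds. On the left 39 members are above 0 on both axes and 2 have opposite signs, and on the right 24 are above 0 on both axes and 19 have opposite signs.

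Probe sets of the same gene gave a check within the arrays. Of 21 members with 2 or more probe sets above the floor, the 2 brightest agreed in direction for 20 with romidepsin, 20 with tamoxifen and 21 with the combination, all against untreated cells. Their median difference was 0.23, 0.12 and 0.19 on the log2 scale. This spread reflects probes on 1 RNA sample and holds no variation between cultures.

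The promoter table has an entry for 38 members, and 12 of these (31.6%) hold TCACGTG on either strand in the 250 bases before and 50 bases after the start. The 12 are ATP6V0B, ATP6V0D1, ATP6V1G1, ARSB, NEU1, CTSA, CTSD, CTSF, GAA, CLN3, LAMP1 and MCOLN1. The motif is in 4.49% of the 27305 genes with an entry and 6.99% of the 11595 of them above the floor on at least 1 array. It contains the shorter E-box CACGTG, which 13 of the 38 members hold (34.2%) and 8.77% of genes. The members are partly known for this element, so the share is a description of the list.

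The holders were read beside the members with an entry and no match. With romidepsin, 3 of the 12 holders (NEU1, MCOLN1 and ATP6V0D1) were at least 2-fold higher and the median was 0.40, from -0.97 (ARSB) to 3.78 (NEU1). The ATP6V0D1 call was lost, at 0.84, when the arrays were centred on their medians. Of 24 measured members with an entry and no match, 8 were at least 2-fold higher, with a median of 0.49. With the combination the medians were 0.37 and 0.86, with 5 of 12 and 11 of 24 higher, and for the combination over romidepsin they were 0.20 and 0.16. Beside these counts, 14.3% of all genes were at least 2-fold higher with romidepsin and 19.8% with the combination. LAMP1, with 8 matches in its window counted over both strands, differed by 0.11 with romidepsin on its brightest probe set (-0.27 to 0.58 over all 4). Absence of these letters from the window says nothing about what binds there.

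Other genes tied to the organelle, on lists that hold none of the members, were read in the same way. Beside further hydrolases, membrane proteins and pump genes, they include 25 sorting genes, 20 regulators and 7 protease inhibitors, not all of them lysosomal. Together 117 of 135 had a probe set. With romidepsin 22 of 109 measured were at least 2-fold higher (20.2%) and 2 lower (1.83%), with tamoxifen 11 of 110 (10%) and 0, and with the combination 37 of 109 (33.9%) and 6 (5.5%). Their medians were 0.36, 0.11 and 0.35, beside 0.47, 0.21 and 0.58 for the members. Over all genes 14.3% were higher and 9.27% lower with romidepsin, 3.7% and 1.07% with tamoxifen, and 19.8% and 14.4% with the combination.

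Among 26 further hydrolases and activators, 8 were at least 2-fold higher (30.8%) and 1 lower (3.85%) with romidepsin. All genes gave 14.3% and 9.27%. RNASET2, a lysosomal ribonuclease, read 1044 untreated, 5565 with romidepsin, 1258 with tamoxifen and 6110 with both. FUCA1, an alpha-fucosidase, read 943, 3599, 1225 and 4261, and GM2A, the activator that serves beta-hexosaminidase, read 1952, 5758, 2369 and 8332 where HEXA itself was lower. CTSV, a relative of cathepsin L, read 850, 3107, 1543 and 5271. The list also holds TPP2, a mainly cytosolic peptidase.

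Of the further membrane proteins, 7 of 28 were at least 2-fold higher with romidepsin and 11 of 28 with the combination, and 0 were lower. The relatives of MCOLN1 were among them: MCOLN2 read 297, 1172, 390 and 1479, and MCOLN3 read 49.4, below the floor, then 250, 133 and 736. LAMP3 read 215, 1981, 658 and 1835, which is 9.21-fold higher with romidepsin and 3.06-fold with tamoxifen. The shares of the list at least 2-fold higher were 25% with romidepsin and 39.3% with the combination, beside 14.3% and 19.8% of all genes. Of all genes 9.27% and 14.4% were as much lower.

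Pump genes outside the list, most of them isoforms of other tissues or assembly factors, gave 2 of 10 at least 2-fold higher with romidepsin and 4 of 10 with the combination, with medians of 0.46 and 0.18. These shares were 20% and 40%, beside 14.3% and 19.8% of all genes. ATP6V1C2, the tissue-restricted relative of ATP6V1C1, was below the floor without romidepsin (11.5 and 10.6) and read 363 with it and 274 with both, at least 5.48-fold and 4.13-fold above untreated cells. DMXL2, a factor of pump assembly, read 316, 555, 1210 and 1271, so it followed tamoxifen. The osteoclast isoform ATP6V0D2 stayed at 121 to 174 on all arrays.

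The messages of the transcription factors themselves stayed within 2-fold. TFEB read 357 untreated, 460 with romidepsin, 208 with tamoxifen and 250 with both, TFE3 read 3198, 3945, 2103 and 3280, and MITF read 3714, 2485, 3729 and 2071. None of these 3 genes was called in any of the 5 comparisons, and message level does not report where these proteins are in the cell. RRAGD, a Rag GTPase that holds them at the lysosome, read 382, 1713, 1196 and 2682, which is 4.48-fold, 3.13-fold and 7.01-fold above untreated cells. RRAGC, its relative, read 2565, 5262, 3768 and 8949. These genes come from a list of regulators with 17 measured. Of the 17, 3 were at least 2-fold higher with romidepsin (17.6%), 3 with tamoxifen (17.6%) and 6 with the combination (35.3%). The shares of all genes were 14.3%, 3.7% and 19.8%. With the combination 2 of the 17 were at least 2-fold lower (11.8%, beside 14.4% of all genes).

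Of 24 genes that sort enzymes to the lysosome, 2 were at least 2-fold higher (8.33%) and 1 lower (4.17%) with romidepsin. With the combination 4 were higher (16.7%) and 2 lower (8.33%). These shares lay below those of all genes (14.3% and 9.27%, then 19.8% and 14.4%), and the medians were 0.07 and 0.17. IGF2R, a mannose 6-phosphate receptor, read 3022, 6432, 4330 and 10212. M6PR, another such receptor, differed less, at 1638, 1640, 1449 and 2092. NAGPA, which uncovers the mannose 6-phosphate tag, read 777, 345, 626 and 287, lower on both arrays with romidepsin. Of 4 protease inhibitors measured with romidepsin, 0 differed 2-fold, and with the combination CSTA, an inhibitor of cysteine cathepsins, read 520 against 157 in untreated cells.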

How the data were processed

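Total RNA from 4 Panc1 samples (untreated, or 24 hours with romidepsin, tamoxifen or both) was hybridised to Affymetrix arrays after biotin labelling of 100 ng, per the labels' protocols. The deposited values are probe-set intensities made by the authors in MAS5 (per the submitters' processing notes, with the version not given in the sources used here). Each array's mean signal, with 2% trimmed at each end, was 500.1, so the values are scaled to an equal bulk signal. The table of probe sets (54675, of which 62 are controls) was joined to the platform annotation, which names 1 gene for 41091, several for 1801 and none for 11721. Each gene was read from the probe set, of those annotated to it alone, with the highest mean log2 signal. Signals below 66.4 were raised to that floor, then log2 was taken, and genes at least 2-fold apart were counted. A fold from the floor is a lower bound. With 1 array a group no test was run, and the number of arrays limits the precision. The calling step was tested on made data. All members may be named, and of the other lists up to 5 with the largest folds in a comparison. TFE3, MITF, TPP2 and M6PR were named beyond that for their roles. The members and lists were chosen with earlier results of these data known. Alternatives were 2 other scalings, 2 other floors and 2 other choices of probe set. Python 3.11.15, numpy 2.4.6, pandas 2.3.3 and matplotlib 3.10.9 were used. Columns of other samples numbered 0. Promoter windows come from RefSeq (GRCh38.p14).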

Additional observations from a re-analysis of the deposited data

Results flagged for a closer look

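Of the 19 members in which tamoxifen gave differences of opposite sign without and with romidepsin, 3 had differences larger in size than 0.22 and 0.21, the median differences between 2 probe sets of a gene over all genes. That measure only picks the larger differences, since it holds no variation between cultures. MCOLN1 differed by -0.66 (log2) for tamoxifen over untreated cells and by 0.27 for the combination over romidepsin. ATP6V0D1 differed by -0.45 and 0.35 in the same comparisons, and CTSO, near the floor, by 0.55 and -0.53. Each value rests on 1 array a condition, and the difference between the paired values was not tested.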

How the results depend on the processing

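No paired analysis was possible because each group holds 1 array, and no array could be left out. Of the members called at 2-fold, 10 of 15 (romidepsin over untreated), 1 of 3 (tamoxifen over untreated), 18 of 24 (combination over untreated), 2 of 4 (combination over romidepsin) and 13 of 20 (combination over tamoxifen) were called the same way under all alternatives that could be run for them. The causes of the following shifts were not tested. Centring on array medians gave 2 members lower with romidepsin instead of 0, and 6 lower with the combination instead of 2. Scaling to spike-in controls gave 9 higher with tamoxifen instead of 3 (median 0.56), 1 lower with the combination (median 0.87), and, for the combination over romidepsin, 7 higher instead of 3, 0 lower instead of 1 and a median of 0.41. The floor at the 75th percentile, which measures fewer genes, gave 1 higher with tamoxifen, 1 lower with the combination, 0 lower for the combination over romidepsin and 2 lower instead of 4 for the combination over tamoxifen. With 32 added and no floor, 0 were lower for the combination over romidepsin. The median over probe sets gave 1 lower with romidepsin, 0 lower for the combination over romidepsin, and 0.35 for HEXA in the combination over tamoxifen. Probe sets of 1 transcript group only, with fewer members, gave 1 lower with romidepsin, 5 higher with tamoxifen, 0 lower for the combination over romidepsin, 2 lower for the combination over tamoxifen, 0.44 for HEXA and -0.06 for SMPD1 in the latter. Dim members (CTSO, CTSK, CTSS) lie near the floor, where signal limits any fold.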

Other observations

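Some genes of the organelle that are known from other cell types came up from below or near the floor with romidepsin. PMEL, the fibril protein of melanosomes, read 86.7 untreated, 265 with romidepsin, 115 with tamoxifen and 269 with both, while MLANA was below the floor on all 4 arrays and TYR was above it with tamoxifen only (128). The 3 melanocyte markers with a probe set summed to 182, 362, 275 and 341 in that order. VPS13C, a lipid transfer protein of lysosomal contacts, read 771, 1364, 1984 and 3006, and OSTM1, a partner of a lysosomal chloride transporter, read 3118, 5920, 6567 and 13164. Both were at least 2-fold higher with tamoxifen over untreated cells and with the combination over romidepsin, which share no array.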
